A study of Homo sapiens with 16 samples.

Results

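Cholesterol synthesis and sterol control are described here through 30 genes, chosen by symbol with earlier results of these data known. They were 8 enzymes of the mevalonate and isoprenoid steps, 12 enzymes of the squalene and sterol steps, 5 genes of SREBP control, and 5 genes of sterol transport, uptake and export. All 30 symbols had a row among the 57820 genes of the deposited table and passed the filter on low values (a mean of 20 or more) in every fit.

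The series measured RNA from CUTLL1, KOPTK1 (Koptk1 in some labels) and HPB-ALL (HpbALL), 3 established human lines of T-cell acute lymphoblastic leukaemia, in which the long non-coding RNA lnrCXCR4 was targeted. In CUTLL1 and KOPTK1, cells infected with lentivirus that carried CRISPR components gave 1 library with a non-targeting guide and 2 libraries with targeting guides in each line. The same lines gave 1 library with a scrambled antisense oligonucleotide (ASO) and 2 libraries with targeting ASOs in each line, with the oligonucleotide added to the medium at 1 uM. HPB-ALL gave 2 non-targeting and 2 targeting guide libraries and none with ASOs, so 6 of the 16 libraries were controls and 10 were targeted. Titles number the targeted libraries as guide or ASO 1 and 2, while descriptions call them replicates. They were used here as replicates of 1 condition, so the spread among them may include differences between guides or between ASOs. All cells were grown in RPMI with serum. Neither the CRISPR effector, the time after treatment nor the origin of replicates in separate cultures is given in the sources used here. Thus p-values rest on the spread among the libraries alone, and that spread may be technical. The level of the lncRNA itself was not analysed here, because 0 of 57820 rows carried its name.

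Cells make cholesterol from acetyl-CoA through mevalonate, isoprenoid diphosphates, squalene and lanosterol. When sterol in the endoplasmic reticulum membrane is low, SCAP carries the SREBP transcription factors (genes SREBF1 and SREBF2) to the Golgi for cleavage, and the released domain activates the pathway's genes; when sterol is high, the INSIG proteins hold SCAP back. Liver X receptors (LXR) respond to oxysterols instead and are known to activate the export pumps ABCA1 and ABCG1 and the receptor-degrading ligase MYLIP, and dividing leukaemia cells need sterol for new membrane.

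Recovered reads per library ran from 34547469 to 72178929. All 8 T-lineage markers were detected in every library, and their summed normalised count ran from 123000 to 135000 in controls and from 55600 to 74700 in targeted libraries. Of the B-lineage markers, MS4A1 stayed at 0.952 or below, while CD79A ran from 125 to 2010, lower in targeted libraries. COL1A1 and COL1A2 stood at 426 and 276 in KOPTK1 guide 1, where the 5 epithelial and fibroblast markers summed to 702 against at most 34.2 in the other KOPTK1 libraries. Libraries of a line and arm lay close together whichever method was used: the chi-square per gene between a guide and an ASO library of the same line and arm was 1.73 to 14.5, against 2.34 to 6.75 between libraries of the same line, arm and method, and 168 to 305 between control and targeted libraries of a line. The guide and ASO results of a line are therefore given side by side and are not read as independent of each other. The fits and SDs still count each library as separate. This includes the guide and ASO controls of CUTLL1 and KOPTK1 in the fit of control levels, so the spread may be understated there. Mitochondrial transcripts took a larger share of counts in targeted than in control libraries, at 2.46 to 2.54% against 2.12 to 2.17% in CUTLL1, 3 to 3.25% against 2.45 to 2.48% in KOPTK1 and 2.50 to 2.52% against 1.84% in HPB-ALL. The share of histone genes (symbols that start with HIST and a digit) was small and also higher after targeting, at 0.0189 to 0.0220% against 0.00499 to 0.00560% in CUTLL1, 0.00483 to 0.00630% against 0.00293 to 0.00332% in KOPTK1 and 0.00805 to 0.00819% against 0.00275 to 0.00281% in HPB-ALL. The part of these shifts in the results below was not tested.

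The first question was whether sterol genes differed between targeted and control cells within a line. The 30 genes together held a larger share of all counts after targeting in each line: 0.438 to 0.446% against 0.336 to 0.341% in CUTLL1, 0.446 to 0.453% against 0.339 to 0.344% in KOPTK1, and 0.405 to 0.409% against 0.380 to 0.382% in HPB-ALL. With guides, 19 of the 30 rose and 3 fell past an adjusted p of 0.05 (limma on log2 of the normalised count + 1, cell line as a term, 10 libraries, Benjamini-Hochberg over 14069 genes). Over all genes tested, 67.7% passed that threshold, 32.7% higher and 35.0% lower, so calls were common in both directions. The median log2 difference was 0.28 over the 30 genes and -0.03 over all genes tested. With ASOs, 23 rose and 4 fell (6 libraries), against 31.8% of all genes higher and 33.2% lower (65.0% called), and the medians were 0.35 and -0.01. In bulk RNA, fewer cells of a kind and less RNA per cell cannot be told apart.

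**Figure D1:**
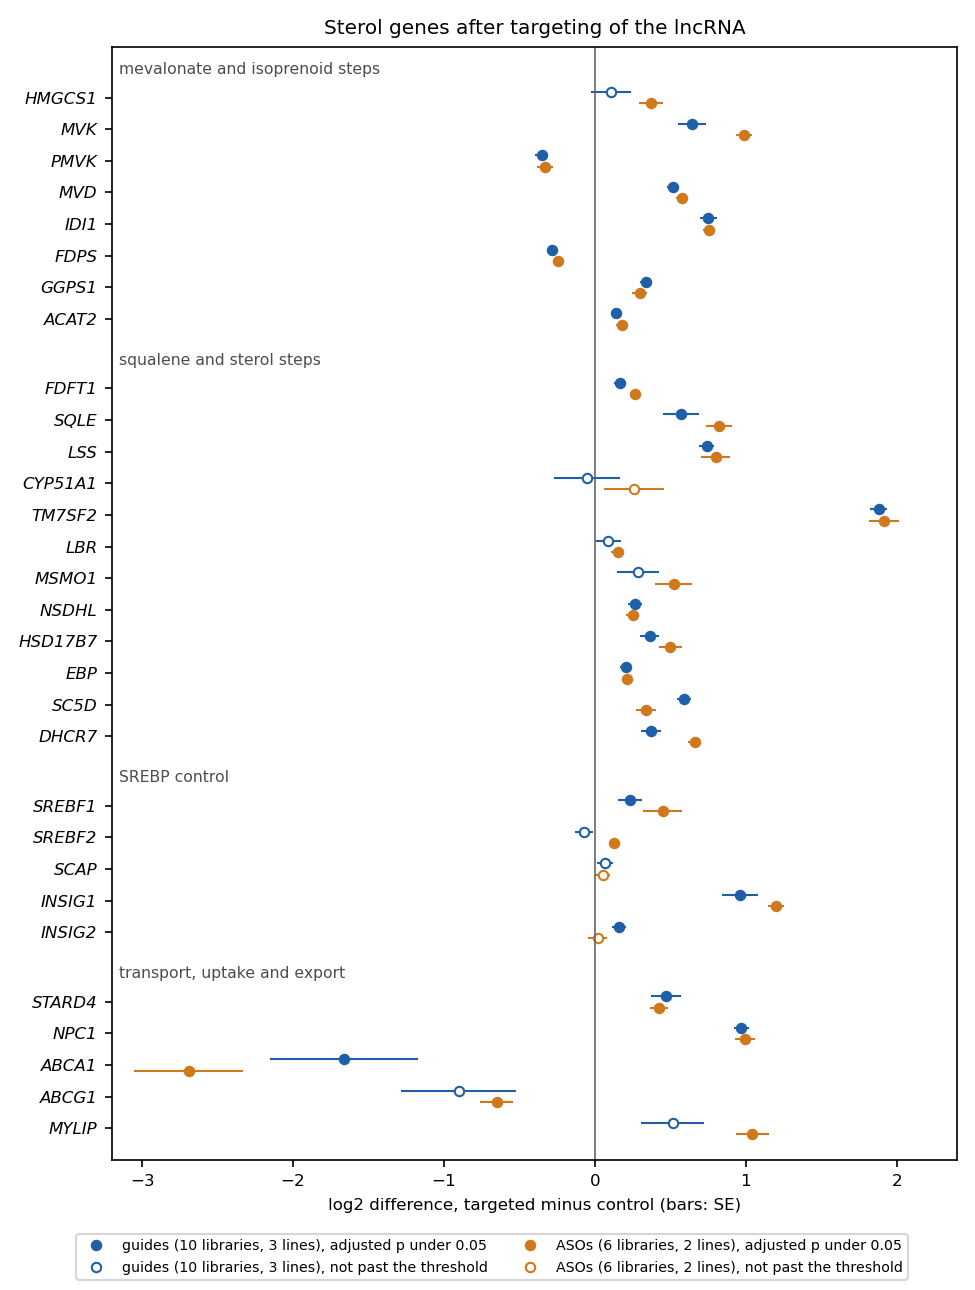
Log2 difference between targeted and control libraries (x axis, bars are standard errors) for the 30 sterol genes (y axis, by role), with guides in blue (10 libraries) and ASOs in orange (6 libraries); filled points passed an adjusted p of 0.05. TM7SF2 lies farthest to the right with both methods (1.88 and 1.91), ABCA1 farthest to the left (-1.66 and -2.69), and PMVK and FDPS are the enzymes below 0 with both.

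Fitted one experiment at a time (5 experiments, each a line and a method, in a group-means fit over all 16 libraries), 17 of the 30 genes rose in 5 of 5 experiments and 2 fell in 5 of 5. The 5 experiments cover 3 lines, and the guide and ASO experiments of a line are not read as independent, although the fit counts their libraries as separate. In CUTLL1, 25 rose and 3 fell with guides and 23 rose and 3 fell with ASOs, where 30.8% and 30.5% of all genes rose and 31.5% and 31.8% fell. KOPTK1 gave 23 and 3 with both methods (31.0% and 30.6% of all genes rose, 33.1% and 32.8% fell), and HPB-ALL gave 18 and 6 with guides (34.0% and 36.9%). Over all genes tested, 19.8% rose in all 5 and 20.8% fell in all 5. The 17 were MVK, MVD, IDI1, GGPS1, ACAT2, FDFT1, SQLE, LSS, TM7SF2, NSDHL, HSD17B7, EBP, SC5D, DHCR7, INSIG1, STARD4 and NPC1. The call was kept in all 5 experiments, whichever library was left out, for 12 of the 17 and for both genes that fell; ACAT2, FDFT1, EBP, SC5D and STARD4 each lost at least 1 (leaving out an experiment's only control gives no value). By range, every targeted library lay above the controls for 26 genes in CUTLL1, 23 in KOPTK1 and 20 in HPB-ALL (39.0%, 36.7% and 40.8% of all genes tested). Every targeted library lay below the controls for 4, 4 and 7 (40.4%, 39.1% and 43.9%). Both arms stayed apart in all 3 lines for 18 genes that were higher and 2 that were lower, against 27.0% and 28.1% of all genes tested.

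The mevalonate steps were mostly higher, with 5 of 8 genes that rose and 2 that fell with guides, and 6 and 2 with ASOs. Values are given as normalised counts, with targeted libraries in the order guide 1, guide 2, ASO 1 and ASO 2. MVK, mevalonate kinase, stood at 1171 and 1095 in the CUTLL1 controls (guide, then ASO) and at 2368, 2244, 2304 and 2346 in the targeted libraries. KOPTK1 gave 1278 and 1200 in controls and 2048, 2065, 2238 and 2209 after targeting. In HPB-ALL the controls gave 1078 and 1092 and the guide libraries 1517 and 1346. Every targeted library lay above every control of its line, and MVK rose by 0.65 ± 0.091 (log2, SE; adjusted p = 0.000149, limma) with guides and by 0.99 ± 0.055 (adjusted p = 2.27e-05) with ASOs. IDI1, the isomerase that makes dimethylallyl diphosphate, started at a like level in each line: 4633 and 4637 in CUTLL1 controls, 4679 and 4920 in KOPTK1 controls, then 4707 and 4768 in HPB-ALL controls. After targeting it reached 7820, 7806, 7821 and 7474 in CUTLL1, 9123, 9103, 8347 and 8646 in KOPTK1, with 7116 and 7363 in HPB-ALL. All 10 targeted libraries thus lay above all 6 controls, with a log2 difference of 0.75 with both methods (SE 0.055 and 0.037; adjusted p = 1.85e-06 and 1.5e-05).

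MVD, the decarboxylase of the pathway, averaged 2069 ± 58.9 in CUTLL1 controls and 3076 ± 94.9 after targeting (SD, n = 2 controls and 4 targeted libraries). The KOPTK1 means were 2385 ± 53.5 and 3518 ± 100 (n = 2 and 4), and the HPB-ALL means 1698 ± 52.4 and 2354 ± 120 (n = 2 and 2). Its log2 difference was 0.52 with guides and 0.57 with ASOs. GGPS1, which makes geranylgeranyl diphosphate for protein prenylation, rose by 0.34 and 0.30. ACAT2, a cytosolic thiolase at the entry of the pathway, rose by 0.14 and 0.18. The exons of ACAT2 share bases with SOD2, SOD2-OT1 and TCP1 on the opposite strand in GENCODE 29. In CUTLL1 guide libraries SOD2 was itself higher (9127 and 9115 against 5716 in their control) and TCP1 lower (20604 and 20632 against 25328). In KOPTK1 guide libraries TCP1 stood at 28177 and 28787 against 27601. No source used here says whether counting used strand. Exons of 13 of the 30 genes share bases with another gene. FDPS shares 28.9% of its exon bases with RUSC1-AS1 and HMGCS1 19.9% with AC114947.2, each on the opposite strand, so the same limit applies to them. GGPS1 shares 11.3% with TBCE on the same strand, where the use of strand would not tell the genes apart. When the libraries of a line and arm counted as 1, the guide call of ACAT2 was lost (adjusted p = 0.0742, limma).

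PMVK and FDPS were lower in every line, unlike the enzymes on either side of them. PMVK, phosphomevalonate kinase, stood at 2351 and 2457 in KOPTK1 controls and at 1975, 1840, 2055 and 1997 after targeting. In HPB-ALL its controls gave 2007 and 2078 and both guide libraries 1519. It fell by 0.35 ± 0.046 with guides and fell by 0.33 ± 0.053 with ASOs on the log2 scale (adjusted p = 8.85e-05 and 0.00174, limma). FDPS, farnesyl diphosphate synthase, stood at 11245 and 10955 in CUTLL1 controls and at 9089, 9110, 9368 and 9177 after targeting. The KOPTK1 controls, at 10077 and 10094, lay above targeted libraries at 7954 to 8687, and the HPB-ALL controls, at 9233 and 9343, above 7898 and 7656. It fell by 0.28 ± 0.030 and fell by 0.24 ± 0.031 (adjusted p = 2.26e-05 and 0.000585), and no targeted library reached a control of its line for either gene. FDPS held the highest level per kilobase of exon of the 30 genes in CUTLL1 and KOPTK1 controls (6740 and 6124 normalised counts per kilobase) and the second highest, after LBR, in HPB-ALL (5639 against 7008).

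HMGCS1, the synthase that makes HMG-CoA, differed by line. In CUTLL1 it stood at 9662 and 9919 in controls and at 14677, 15248, 14739 and 14663 after targeting. In KOPTK1 the controls gave 9410 and 9288 and the targeted libraries 10915, 11006, 10499 and 10529. In HPB-ALL the controls were the highest of all 16 libraries, at 16011 and 16192, and the guide libraries were lower, at 12582 and 13301. Arms did not overlap in any line, and the 3-line guide estimate of 0.11 ± 0.13 (adjusted p = 0.492, limma) averages over opposite signs. Within single experiments the log2 difference was 0.63 with guides and 0.57 with ASOs in CUTLL1, 0.22 and 0.18 in KOPTK1, and -0.32 in HPB-ALL, each past the threshold (largest adjusted p = 0.00139).

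**Figure D2:**
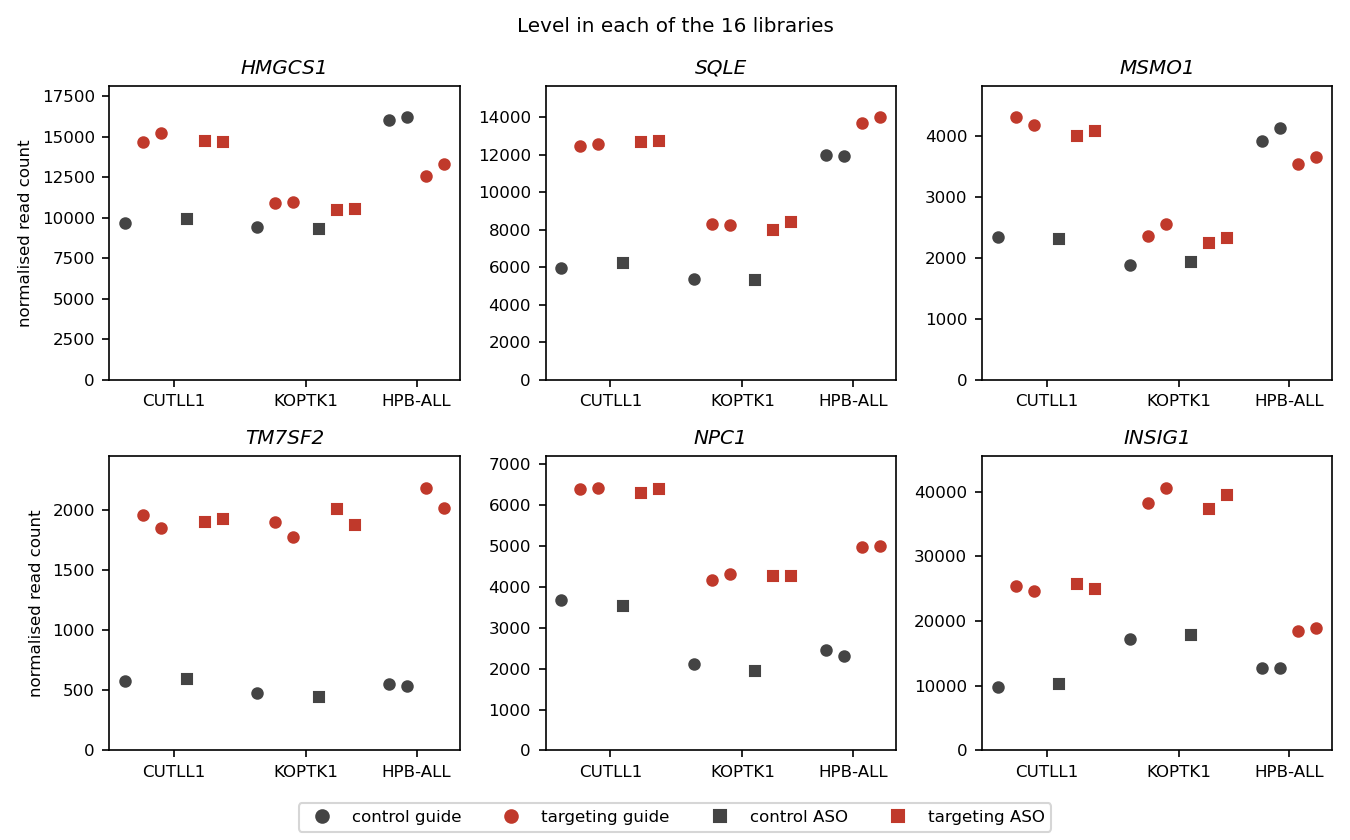
Normalised read count (y axes, from 0) of HMGCS1, SQLE, MSMO1, TM7SF2, NPC1 and INSIG1 in each of the 16 libraries, by line (x axis); controls are grey and targeted libraries red, guides are circles and ASOs squares. TM7SF2 and NPC1 lie higher after targeting in each line, while HMGCS1 and MSMO1 lie higher in CUTLL1 and KOPTK1 and lower in HPB-ALL, whose controls already reach 16011 and 3909 or more.

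Of the 12 squalene and sterol enzymes, 9 rose and none fell with guides, and 11 rose and none fell with ASOs. TM7SF2, a sterol C14 reductase, showed the largest rise of the 30 genes. Its controls gave 578 and 592 in CUTLL1, 478 and 442 in KOPTK1, with 555 and 534 in HPB-ALL. Its targeted libraries gave 1965, 1854, 1900 and 1930 in CUTLL1, 1903, 1779, 2015 and 1878 in KOPTK1, with 2187 and 2019 in HPB-ALL. The lowest targeted library was thus at about 3 times the highest control, and the ratio of means was 3.27 in CUTLL1, 4.12 in KOPTK1 and 3.86 in HPB-ALL. The log2 difference was 1.88 ± 0.057 with guides (adjusted p = 2.05e-08, limma) and 1.91 ± 0.10 with ASOs (adjusted p = 1.86e-05). LBR, the lamin B receptor, is the other C14 reductase of the cell and a protein of the nuclear envelope. It was far more abundant, at 5723 to 7008 normalised counts per kilobase of exon in controls against 267 to 340 for TM7SF2, and gave 0.09 ± 0.082 with guides (adjusted p = 0.357, limma) and 0.15 ± 0.043 with ASOs (adjusted p = 0.0206). The pooled guide value covers opposite changes by line: LBR rose by 0.23 in CUTLL1 (adjusted p = 0.00357) and by 0.35 in KOPTK1 (adjusted p = 0.000169) and fell by 0.17 in HPB-ALL (adjusted p = 0.00419). The ASO call of LBR was lost without CUTLL1 ASO 1, KOPTK1 control ASO 1 or KOPTK1 ASO 2 (adjusted p = 0.0617, 0.109 and 0.0593).

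SQLE, squalene epoxidase, a rate-controlling step after squalene, stood at 5979 and 6219 in CUTLL1 controls and at 12477, 12541, 12662 and 12703 after targeting. KOPTK1 controls gave 5353 and 5328 and its targeted libraries 8287, 8243, 7971 and 8414. The HPB-ALL controls, at 11955 and 11938, already lay near the targeted level of CUTLL1, and the guide libraries gave 13673 and 13977. Arms did not overlap in any line, and the ratio of means was 2.07 in CUTLL1, 1.54 in KOPTK1 and 1.16 in HPB-ALL. LSS, lanosterol synthase, which closes the first sterol ring system, had another order of lines: its ratio was 1.47 in CUTLL1, 1.93 in KOPTK1 and 1.73 in HPB-ALL. In KOPTK1 it went from 4972 and 4715 to 9089, 9014, 9708 and 9622. The log2 differences with guides and ASOs were 0.57 and 0.82 for SQLE (adjusted p = 0.00183 and 0.000255, limma) and 0.74 and 0.80 for LSS (adjusted p = 1.16e-06 and 0.000489).

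The other called enzymes of these steps rose as well. SC5D, lathosterol oxidase, rose by 0.59 with guides and 0.34 with ASOs, and in HPB-ALL it went from 1247 and 1209 to 1872 and 1862. DHCR7, the final reductase of the branch that passes through 7-dehydrocholesterol, rose by 0.37 and 0.66. Its CUTLL1 controls gave 2316 and 2243 and the targeted libraries 3560, 3413, 3672 and 3712. NSDHL, which acts in C4 demethylation, rose by 0.27 and 0.25, and EBP, a sterol isomerase, by 0.21 and 0.21. FDFT1, squalene synthase, which commits farnesyl diphosphate to sterols, rose by 0.17 and 0.26, with arms that did not overlap in any line.

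HSD17B7, a reductase of C4 demethylation, rose by 0.36 and 0.50, but a near-identical pseudogene limits this value. The row of that copy, HSD17B7P2, also lay higher after targeting in CUTLL1 (112 and 111 in controls against 205 to 234) and in KOPTK1 (125 and 121 against 143 to 182), so reads may be split between the rows. In HPB-ALL the copy stayed at 4.76 or below in every library, and there HSD17B7 went from 486 and 470 to 598 and 607. CYP51A1, the lanosterol demethylase, passed the threshold with neither method (-0.05 ± 0.22, adjusted p = 0.838, and 0.26 ± 0.20, adjusted p = 0.289, limma). Its row held few reads beside its neighbours in the pathway, at 41.4, 7.86 and 98.1 normalised counts per kilobase in CUTLL1, KOPTK1 and HPB-ALL controls, and its sign with guides changed under quantile scaling (0.26). Whether the row holds all reads of the gene is not known, so neither its level nor the missing call can be taken as that of the whole gene.

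MSMO1, the C4 methyl oxidase, followed the pattern of HMGCS1. It went from 2337 and 2303 to 4295, 4167, 3992 and 4076 in CUTLL1. In KOPTK1 it went from 1875 and 1937 to 2363, 2552, 2235 and 2327. In HPB-ALL it went from 3909 and 4120 down to 3530 and 3642. The CUTLL1 targeted libraries therefore reached the level of the HPB-ALL controls. Over the 3 lines the guide difference of 0.29 ± 0.14 missed the threshold (adjusted p = 0.105, limma), and with ASOs MSMO1 rose by 0.52 ± 0.12 (adjusted p = 0.00807).

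In the SREBP control group, 3 of 5 genes rose and none fell with either method. INSIG1, which retains SCAP and is itself a known SREBP target, rose most. It stood at 9768 and 10296 in CUTLL1 controls and at 25435, 24641, 25702 and 24876 after targeting. KOPTK1 had the highest levels, with 17221 and 17879 in controls and 38222, 40564, 37383 and 39462 after targeting. HPB-ALL gave 12765 and 12782 in controls and 18411 and 18975 after targeting. No arms overlapped, and the log2 difference was 0.96 ± 0.12 with guides (adjusted p = 7.45e-05, limma) and 1.2 ± 0.051 with ASOs (adjusted p = 1.08e-05). INSIG2, the second retention protein, had fewer counts per kilobase than INSIG1 in each line (548 against 3256 in CUTLL1 controls). It rose by 0.16 ± 0.046 with guides (adjusted p = 0.0106) and gave 0.02 ± 0.064 with ASOs (adjusted p = 0.817). That guide call was lost when the libraries of a line and arm counted as 1 (0.11, adjusted p = 0.245).

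SREBF1, the gene of SREBP-1, rose mainly in KOPTK1. There the controls gave 10133 and 9705 and the targeted libraries 14931, 15243, 16405 and 16449. In CUTLL1 the controls gave 6961 and 7063 and the targeted libraries 7563, 7579, 7923 and 7647. In HPB-ALL the controls gave 2125 and 2108 and the guide libraries 2340 and 2142. The pooled rise was 0.23 ± 0.078 with guides and 0.45 ± 0.13 with ASOs (adjusted p = 0.0233 and 0.0184, limma). The guide call rested on KOPTK1, since without its control guide library, the only one it has, the value was 0.10 (adjusted p = 0.0544), and the ASO call was lost without KOPTK1 ASO 1 or ASO 2 (adjusted p = 0.0574 and 0.0558).

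SREBF2, the gene of SREBP-2, which is best known for the cholesterol genes, did not move in 1 direction. It rose by 0.13 ± 0.027 with ASOs (adjusted p = 0.00628, limma) and gave -0.07 ± 0.060 with guides (adjusted p = 0.32). In HPB-ALL its controls, at 23057 and 21744, lay above the guide libraries at 19062 and 18440, and it fell by 0.26 there (adjusted p = 1.67e-05). The guide value was 0.10 in CUTLL1 (adjusted p = 0.0469) and 0.04 in KOPTK1 (adjusted p = 0.39). That CUTLL1 call was lost without CUTLL1 guide 1 (0.08) or guide 2 (0.11). SCAP, the SREBP escort, passed the threshold with neither method (0.07 ± 0.051, adjusted p = 0.268, and 0.05 ± 0.050, adjusted p = 0.377). By line, its guide value was 0.19 in CUTLL1 (adjusted p = 0.00717), 0.11 in HPB-ALL (adjusted p = 0.0274) and -0.12 in KOPTK1 (adjusted p = 0.0547). With ASOs it was 0.13 in CUTLL1 (adjusted p = 0.0394) and -0.03 in KOPTK1 (adjusted p = 0.685). This CUTLL1 ASO call was lost without CUTLL1 ASO 1 (0.15), ASO 2 (0.11), guide 1 or guide 2 (0.13 each). The HPB-ALL call was lost without HPB-ALL control 2 or guide 1 (0.08 each). So the retention gene INSIG1 rose about 2-fold, while the genes of the escort and of SREBP-2 stayed within 0.13 of their controls on the log2 scale in the pooled fits. For both of these genes the pooled guide value averages over lines of opposite sign.

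Transport genes inside the cell rose and export genes were lower. NPC1, which moves cholesterol out of lysosomes, stood at 3672 and 3535 in CUTLL1 controls and at 6388, 6420, 6304 and 6399 after targeting. KOPTK1 controls gave 2126 and 1935 and its targeted libraries 4177, 4311, 4276 and 4261. HPB-ALL controls gave 2458 and 2307 and its guide libraries 4977 and 5003. Each targeted library lay above each control of its line, and NPC1 rose by 0.97 ± 0.048 with guides (adjusted p = 2.13e-07, limma) and by 0.99 ± 0.066 with ASOs (adjusted p = 4e-05). STARD4, a soluble sterol carrier, rose by 0.47 and 0.43 (adjusted p = 0.00195 and 9e-04). Its CUTLL1 means were 2547 ± 103 and 3553 ± 205 (SD, n = 2 controls and 4 targeted libraries), its KOPTK1 means 2020 ± 138 and 3150 ± 324 (n = 2 and 4), and its HPB-ALL means 3106 ± 60.3 and 3538 ± 288 (n = 2 and 2).

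ABCA1, which pumps cholesterol onto apolipoproteins, was lower after targeting where it was expressed at all. In CUTLL1 it stood at 273 and 310 in controls and at 87.5, 97.6, 57.9 and 83.7 after targeting, a ratio of 0.280. In KOPTK1 the controls gave 10.7 and 8.48, from 11 and 13 reads, and 4 of 4 targeted libraries were at 0. Against a floor of 3 reads per library (4.02 normalised counts at the shallowest), ABCA1 was at least 2.38-fold lower there. In HPB-ALL it was at 0.95 or below in all 4 libraries, and no fold is given. ABCA1 fell by 1.66 ± 0.49 with guides and fell by 2.69 ± 0.36 with ASOs (adjusted p = 0.0134 and 0.000752, limma), values that depend on the count of 1 added before the log in KOPTK1. The guide call was lost without the KOPTK1 control guide library (-0.91, adjusted p = 0.0578) and when the libraries of a line and arm counted as 1 (-1.91, adjusted p = 0.0528).

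ABCG1, which pumps cholesterol onto lipoproteins, stood at 1213 and 1196 in CUTLL1 controls and at 576, 587, 640 and 648 after targeting. The KOPTK1 controls gave 1627 and 1646 and the targeted libraries 1307, 1216, 1232 and 1248. The arms did not overlap in these lines, and ABCG1 fell by 0.65 ± 0.11 with ASOs (adjusted p = 0.00188, limma). With guides the estimate was -0.90 ± 0.38 (adjusted p = 0.0589). That estimate includes HPB-ALL, where ABCG1 was at 3.96 and 0 in the controls (3 reads and 0) and at 0 in both guide libraries. Without HPB-ALL control 1 it was -0.48 (adjusted p = 0.0494) and without HPB-ALL control 2 it was -1.25 (adjusted p = 0.00547), so the size rests on a line in which the gene was not detectable above the floor.

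MYLIP, a ubiquitin ligase that lowers lipoprotein receptors at the cell surface, was higher, unlike the pumps. It stood at 521 and 507 in CUTLL1 controls and at 1071, 950, 1000 and 1041 after targeting. In KOPTK1 it stood at 24.2 and 27.4 in controls and at 43.1, 46, 63.1 and 55 after targeting, and in HPB-ALL at 0 in all 4 libraries. The ratio of means was 1.98 in CUTLL1 and 2.01 in KOPTK1, with no overlap of arms. MYLIP rose by 1.04 ± 0.11 with ASOs (adjusted p = 0.000263, limma), and gave 0.52 ± 0.21 (adjusted p = 0.0537) with guides, where HPB-ALL was averaged in. The 3 genes listed as LXR targets thus did not move in 1 direction.

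**Figure D3:**
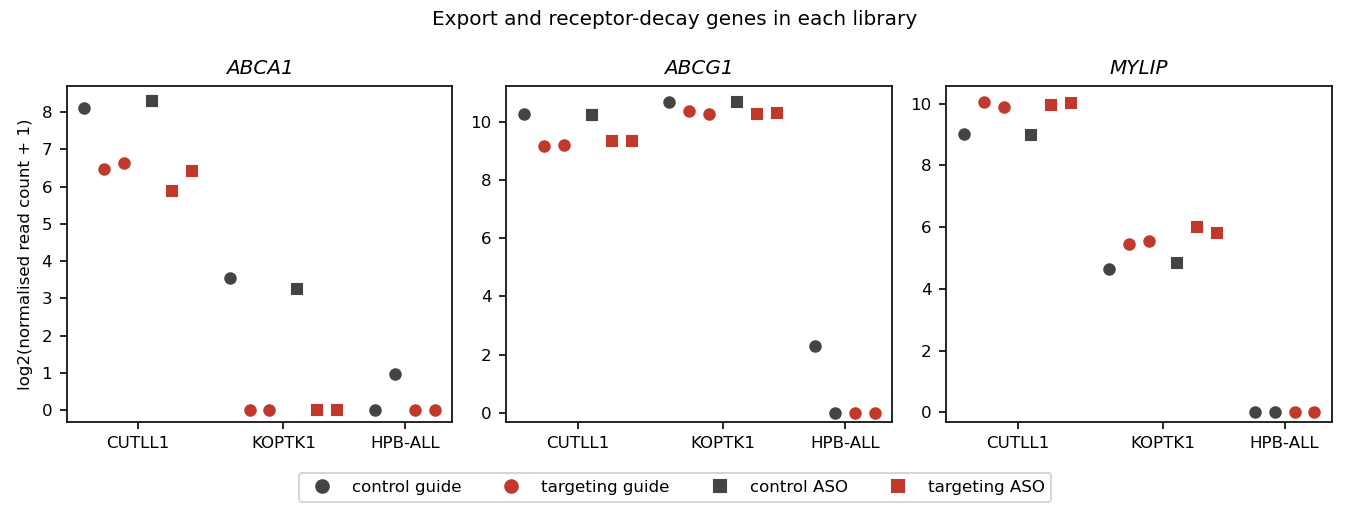
Log2 of the normalised read count + 1 (y axes) of ABCA1, ABCG1 and MYLIP in each library, by line (x axis); controls are grey and targeted libraries red, guides are circles and ASOs squares. In CUTLL1 and KOPTK1 the targeted libraries lie below the controls for ABCA1 and ABCG1 and above them for MYLIP, and in HPB-ALL the 3 genes are at 3.96 normalised counts or below.

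The next question was whether the lines responded alike. The guide response differed among the 3 lines for 17 of the 30 genes (limma F test of the 2 contrasts, adjusted p under 0.05), against 43.7% of all genes tested. Beside HMGCS1 and MSMO1 (adjusted p = 4.11e-07 and 3.6e-06), the smallest p-values belonged to SQLE (6.25e-07) and INSIG1 (3.16e-06). INSIG1 rose in every line, by 1.36 in CUTLL1, 1.19 in KOPTK1 and 0.55 in HPB-ALL with guides, and its lowest response, like that of SQLE, was in HPB-ALL. Calls went in both directions for 4 genes: HMGCS1, LBR, MSMO1 and SREBF2, all of them lower in HPB-ALL (-0.32, -0.17, -0.16 and -0.26). The rises of SREBF2 were not stable. Its CUTLL1 guide call was lost without any 1 of several libraries, CUTLL1 guide 1 (0.08) and guide 2 (0.11) among them. Its ASO calls were lost in CUTLL1 without CUTLL1 ASO 1 (0.11) and in KOPTK1 without KOPTK1 ASO 1 (0.12). The HPB-ALL call was lost for LBR without HPB-ALL guide 1 (-0.13, adjusted p = 0.0509) and for MSMO1 without HPB-ALL control 2 (-0.12, adjusted p = 0.0629). TM7SF2, PMVK, FDPS, MVD, GGPS1 and NSDHL did not pass the test of a line difference (adjusted p = 0.128, 0.319, 0.664, 0.394, 0.848 and 0.776), which does not show that their responses were equal.

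Between CUTLL1 and KOPTK1 alone, 9 of the 30 guide responses differed (16.1% of all genes tested): 4 were higher in KOPTK1 (7.70%) and 5 lower (8.41%). With ASOs 7 of the 30 differed (13.3%), 4 higher (7.05%) and 3 lower (6.30%). HMGCS1, SQLE and MSMO1 responded less in KOPTK1, by -0.41, -0.44 and -0.47 with guides (adjusted p = 0.000513, 0.000213 and 0.00217, limma) and by -0.39, -0.41 and -0.57 with ASOs. LSS and SREBF1 responded more in KOPTK1, by 0.32 and 0.45 with guides (adjusted p = 0.00211 and 0.00106) and by 0.47 and 0.62 with ASOs. TM7SF2 differed with ASOs (0.44 ± 0.10, adjusted p = 0.0157) and missed the threshold with guides (0.22 ± 0.10, adjusted p = 0.179). The guide differences of IDI1, SCAP, NPC1 and ABCA1 also passed (adjusted p = 0.0252, 0.0147, 0.0457 and 0.0477). Of these, ABCA1 was lost in 11 and NPC1 in 9 of the 14 refits that left out 1 library, and IDI1 without CUTLL1 guide 1 or guide 2.

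**Figure D4:**
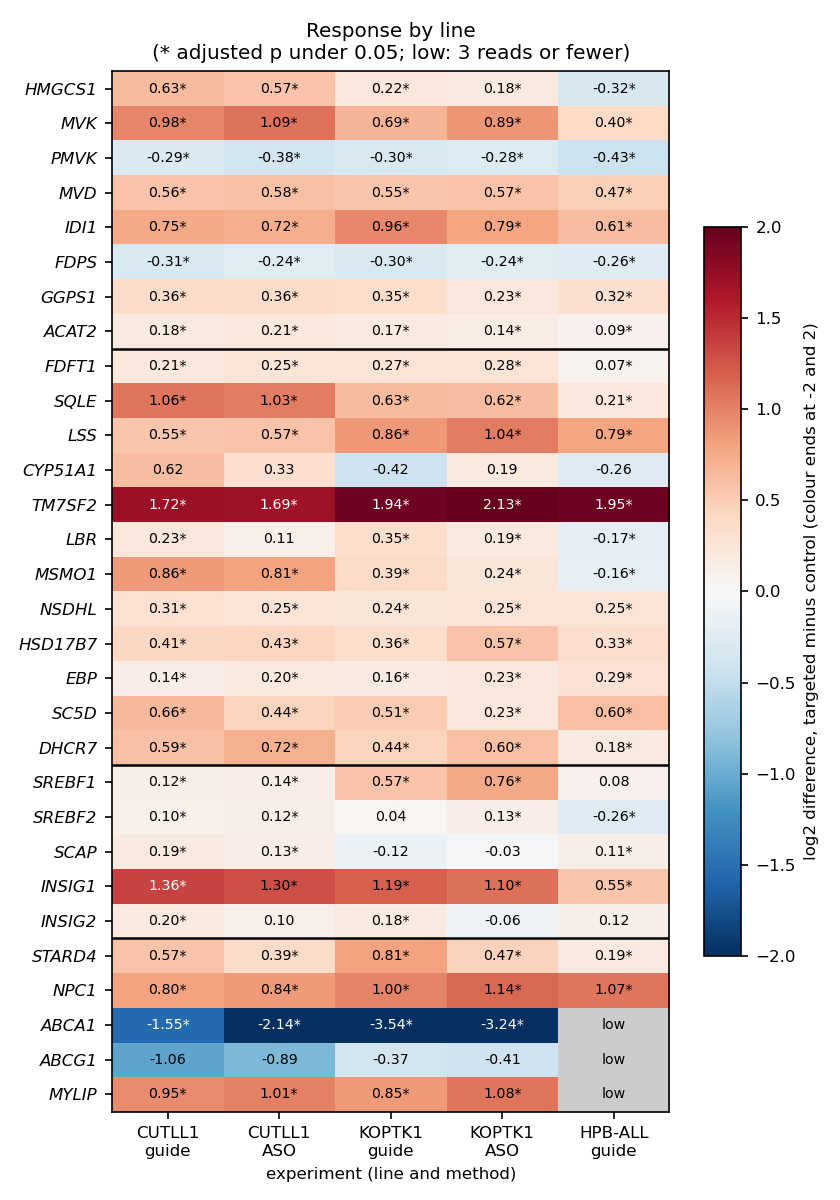
Log2 difference between targeted and control libraries for the 30 genes (rows, by role) in each of 5 experiments (columns), red where higher and blue where lower; an asterisk marks an adjusted p under 0.05 and grey cells hold 3 reads or fewer in every library. HMGCS1 is red in CUTLL1 (0.63 and 0.57) and blue in HPB-ALL (-0.32), TM7SF2 is dark red in all 5 columns, and PMVK and FDPS are blue in all 5.

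The method of targeting made no difference that passed the test. ASO minus guide response, averaged over CUTLL1 and KOPTK1, was past the threshold for 0 of 14020 genes (0% called, limma), with 1393 at an unadjusted p under 0.05. Among the 30 genes, 9 had an unadjusted p under 0.05 and the smallest adjusted p was 0.496. Leaving aside the 4 genes of low count or wide spread (CYP51A1, ABCA1, ABCG1 and MYLIP), no difference between methods was larger than 0.26 on the log2 scale over 26 genes. This comparison is bounded by the closeness of the guide and ASO libraries given above.

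The controls show where each line started. Levels in the 6 control libraries differed by line for 29 of the 30 genes (limma F test), against 92.7% of all genes tested, and IDI1 was the exception (adjusted p = 0.324). The call of MVK was lost without KOPTK1 control guide 1, HPB-ALL control 1 or HPB-ALL control 2 (adjusted p = 0.149, 0.0919 and 0.0752). HPB-ALL controls were above CUTLL1 controls for 15 genes and below for 9, against 40.1% and 39.3% of all genes. Of the 12 squalene and sterol enzymes, 9 were above and 1, EBP, below. The largest differences among well-expressed enzymes were SQLE (0.97 ± 0.026, adjusted p = 5.55e-08), MSMO1 (0.79 ± 0.037, adjusted p = 7.23e-07) and HMGCS1 (0.72 ± 0.024, adjusted p = 1.4e-07). The 3 enzymes whose HPB-ALL controls stood highest over CUTLL1 in this way had ratios of 1.16, 0.893 and 0.804 after targeting in HPB-ALL and of 2.07, 1.78 and 1.51 in CUTLL1. SC5D did not share this pattern: its control mean was 1228 in HPB-ALL against 828 in CUTLL1, with ratios of 1.52 and 1.46. The same control values enter both the starting level and the ratio. Whether the starting level had a part in the response was not tested.

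SREBF1 and SCAP went the other way, lower in HPB-ALL controls than in CUTLL1 controls by -1.73 ± 0.029 and -1.05 ± 0.039 (adjusted p = 6.89e-09 and 2.46e-07, limma). Per kilobase of exon, SREBF1 held 471 normalised counts in HPB-ALL controls against 1560 in CUTLL1 and 2207 in KOPTK1, while SREBF2 held 4175, 3396 and 2945. SREBF2 thus outweighed SREBF1 in each line, and most in HPB-ALL. KOPTK1 controls were above CUTLL1 controls for 8 genes and below for 15, against 38.3% and 37.8% of all genes. INSIG1 was higher there by 0.81 ± 0.032 and PMVK by 0.82 ± 0.043, and NPC1 lower by -0.83 ± 0.054 (largest adjusted p = 5.89e-06). HPB-ALL controls were above KOPTK1 controls for 16 genes and below for 12 (39.7% and 39.9% of all genes). CUTLL1 held the most ABCA1 and MYLIP, and HPB-ALL had neither of them nor ABCG1 above the floor.

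**Figure D5:**
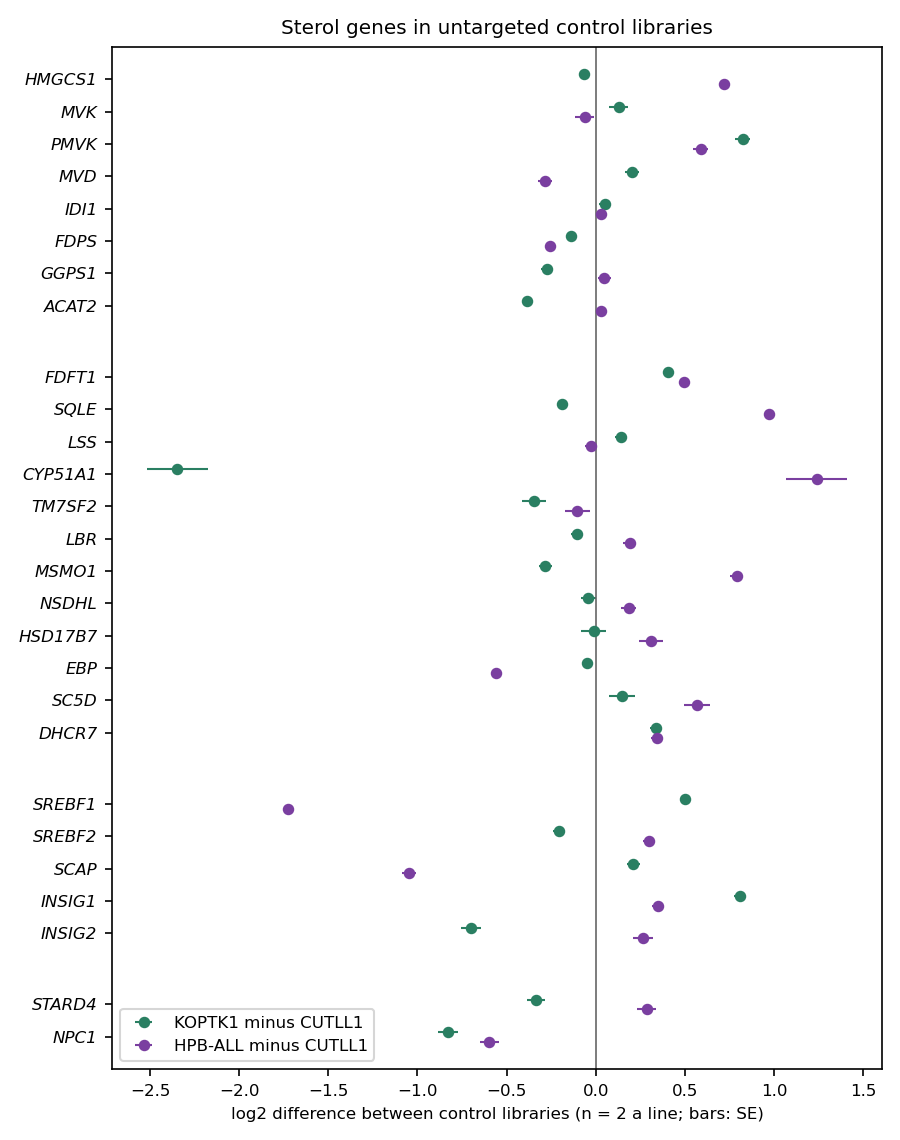
Log2 difference between control libraries (x axis, bars are standard errors, 2 libraries a line) for 27 sterol genes (y axis), KOPTK1 minus CUTLL1 in green and HPB-ALL minus CUTLL1 in purple; ABCA1, ABCG1 and MYLIP are left out because they are at or near 0 in a line. SQLE, MSMO1 and HMGCS1 lie to the right in HPB-ALL (0.97, 0.79 and 0.72), and SREBF1 and SCAP to the left (-1.73 and -1.05).

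Since many of these genes rose together, their promoters were read from RefSeq (GRCh38.p14), as windows from 250 bases before to 50 bases after the start of transcription. A window was found for 26 of the 30 genes. SREBPs bind sterol regulatory elements and work with NF-Y, which binds the CCAAT box. The pentamer CCAAT, searched on both strands, was present for 18 of the 26 genes (69.2%), against 43.9% of the 9214 genes tested with guides that had a window, and in 34.6% of all 35116 windows. The stretches around it are shown for 11 genes that rose in at least 1 comparison, each on the strand of its gene, with the box in capitals as CCAAT or as its reverse complement ATTGG.
HMGCS1, chr5:43313490-43313530, minus strand: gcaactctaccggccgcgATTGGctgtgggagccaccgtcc
MVK, chr12:109573730-109573770, plus strand: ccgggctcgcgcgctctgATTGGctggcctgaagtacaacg
MVD, chr16:88663154-88663194, minus strand: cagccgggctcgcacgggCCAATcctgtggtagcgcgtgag
IDI1, chr10:1048951-1048991, minus strand: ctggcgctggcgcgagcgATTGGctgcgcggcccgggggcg
LSS, chr21:46228902-46228942, minus strand: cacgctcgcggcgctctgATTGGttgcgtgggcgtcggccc
TM7SF2, chr11:65111780-65111820, plus strand: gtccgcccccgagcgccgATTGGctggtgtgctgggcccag
MSMO1, chr4:165327617-165327657, plus strand: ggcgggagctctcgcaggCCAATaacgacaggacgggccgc
SC5D, chr11:121292697-121292737, plus strand: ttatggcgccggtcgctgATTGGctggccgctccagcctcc
DHCR7, chr11:71448419-71448459, minus strand: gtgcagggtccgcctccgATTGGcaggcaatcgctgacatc
INSIG1, chr7:155297690-155297730, plus strand: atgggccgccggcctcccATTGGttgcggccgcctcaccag
STARD4, chr5:111512643-111512683, minus strand: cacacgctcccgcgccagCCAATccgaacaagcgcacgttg

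The box lay between 34 (MSMO1) and 170 (INSIG1) bases before the start in these genes, and 8 of the 11 held it as ATTGG. FDPS, which fell, also had a CCAAT box, while every other gene with the box rose with ASOs. With guides HMGCS1, MSMO1, MYLIP and SREBF2 had the box and passed no threshold. LBR, NPC1 and SREBF1 rose with ASOs without a box in this window, and PMVK, which fell, had none. The match and the rise thus did not coincide in every gene, and whether they go together was not tested. The sterol regulatory element, whose letters are those in capitals in the line for SREBF2, was searched on both strands and found in 0.0456% of all windows and, among these genes, only in that of SREBF2, whose own promoter is shown for this reason with the element in capitals.
SREBF2, chr22:41832951-41833000, plus strand: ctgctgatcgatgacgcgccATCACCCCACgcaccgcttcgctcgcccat

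Its looser form TCACNCCAC, which overlaps it, was likewise found for SREBF2 alone (1.13% of all windows). Among the genes tested, 0.0651% had the exact element and 1.55% the looser form. Their absence from these short windows therefore says little about the other genes. The E-box CACGTG was present for 5 of 26 genes, against 12.8% of the genes tested, and the GC box GGGCGG for 24 of 26, against 77.1%. The LXR element, searched as AGGTCA repeated after a gap of 4 bases, was found for 0 of 26, ABCA1 and MYLIP included. This strict form was in 0.0199% of all windows and 0.0109% of the genes tested, so its absence says little about these genes. TM7SF2, the gene with the largest rise, is shown with all 250 bases before its start, with GGGCGG, its reverse complement and the CCAAT box in capitals.
TM7SF2, chr11:65111622-65111871, plus strand: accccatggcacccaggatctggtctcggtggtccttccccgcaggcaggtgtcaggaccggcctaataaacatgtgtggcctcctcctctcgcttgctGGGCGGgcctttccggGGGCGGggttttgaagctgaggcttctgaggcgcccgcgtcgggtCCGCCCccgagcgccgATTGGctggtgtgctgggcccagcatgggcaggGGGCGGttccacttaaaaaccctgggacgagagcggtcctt

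These matches describe letters only; no binding was measured here.

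Genes around the pathway, taken from 3 further lists, moved in both directions: calls below the controls outnumbered those above in 2 lists, and calls above outnumbered those below in the list of transport, storage and LXR. Over all genes tested, 32.7% rose and 35.0% fell with guides, with a median log2 difference of -0.03. Of 18 tested genes of sterol sensing and SREBP processing, 5 rose and 9 fell with guides, with a median of -0.09. RNF145, a ubiquitin ligase of sterol-dependent protein decay, fell by 0.67 (adjusted p = 6.95e-06, limma) and AUP1 fell by 0.51 (adjusted p = 5.24e-06). Of 22 genes that use isoprenoids outside sterol synthesis, 3 rose and 11 fell (median -0.16), among them COQ3, a methyltransferase of coenzyme Q synthesis, which fell by 1.02 (adjusted p = 2.21e-06), PDSS1, which builds its side chain, by 0.66, and TRIT1, a tRNA isopentenyl transferase, by 0.39. Of 25 further genes of sterol transport, storage and LXR, 12 rose and 5 fell (median 0.14). NPC2, the luminal partner of NPC1, rose by 0.79 (adjusted p = 3.79e-06), and GRAMD1A, which carries sterol from the plasma membrane to the endoplasmic reticulum, fell by 0.68 (adjusted p = 9.32e-07). CYP46A1, cholesterol 24-hydroxylase, rose by 3.53 ± 0.17 (adjusted p = 2.06e-07), from 2.9 to 23.2 normalised counts in the 6 controls to 54.9 to 229.2 in the 10 targeted libraries. With ASOs the counts were 4 up and 8 down of 18 (median -0.08), 3 and 10 of 22 (-0.15), and 12 and 5 of 23 (0.16), where 31.8% of all genes rose and 33.2% fell (median -0.01). The share of sterol sensing genes that rose with guides was near that of all genes.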

How the data were processed

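RNA-seq of 16 libraries was used. Per the labels' protocols, total RNA was column-extracted and libraries were made with a directional kit. The deposited table holds, for each gene and library, a signal in normalised read counts that the authors made by dividing whole reads by 1 factor per library (100% of values were whole multiples within 1e-06). Per the submitters' processing notes, STAR (1.4.2), DESeq2 and hg19 were used, in roles not stated. Neither the counter, the annotation nor the use of strand is given in the sources used here.

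Tests used limma 3.58.1 (R 4.3.3) on log2(value + 1), with moderated variances (empirical Bayes, trend on intensity), for genes that averaged 20 or more across a fit's libraries, adjusted by Benjamini-Hochberg (threshold 0.05). Guides (10 libraries) and ASOs (6) were fitted with cell line as a term; single experiments, line differences and the method difference came from a group-means fit over 16 libraries, in which lone controls are assumed to vary like the other groups. Controls (6) were fitted by line, with the guide and the ASO control of CUTLL1 and of KOPTK1 taken as separate libraries. Alternatives were other pseudocounts (5), filters (none, 100), scalings, robust moderation, edgeR 4.0.16 and DESeq2 1.42.0 on recovered reads, a replicate block, and leaving out each library. The ASO fits with edgeR and DESeq2 left out CUTLL1 ASO 1. The fits were tested on simulated data. The named genes were all 30 listed symbols and, per further list, the 3 called genes with the smallest p with guides, of which some are not reported here. Members and lists were chosen with earlier results of these data known. Exon lengths and overlaps came from GENCODE 29 by symbol, and promoters from RefSeq; both are of another build than hg19.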

Additional observations from a re-analysis of the deposited data

Results flagged for a closer look

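The response to targeting differed between lines, by a test of the difference itself (limma, adjusted over all genes), for the genes below; 43.7% of all genes did so with guides and 13.3% with ASOs. Among the mevalonate steps the adjusted p for the guide response over 3 lines was 4.11e-07 for HMGCS1, 0.000819 for MVK and 0.000694 for IDI1. Among the squalene and sterol enzymes it was 0.0102 for FDFT1, 6.25e-07 for SQLE, 0.00122 for LSS, 0.000314 for LBR, 3.6e-06 for MSMO1 and 0.000767 for DHCR7. In SREBP control it was 0.000171 for SREBF1, 0.000346 for SREBF2, 0.0105 for SCAP and 3.16e-06 for INSIG1. Among transport genes it was 0.00356 for STARD4, 0.0063 for NPC1, 0.00342 for ABCA1 and 0.0193 for MYLIP; the last pair is at or under the floor of 3 reads in HPB-ALL. With guides, HMGCS1, LBR and MSMO1 fell in HPB-ALL and rose in the other lines. SREBF2 fell in HPB-ALL, with 0.04 in KOPTK1 (adjusted p = 0.39, limma). Its rise in CUTLL1 lost its call without CUTLL1 guide 1 or guide 2. The remaining genes with counts in 3 lines, save SCAP (-0.12 in KOPTK1), kept 1 direction and differed in size.

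With ASOs, the KOPTK1 response differed from the CUTLL1 response for HMGCS1 (adjusted p = 0.000728), SQLE (0.000349), MSMO1 (0.000627), LSS (0.000157), TM7SF2 (0.0157), SREBF1 (0.000127) and NPC1 (0.00754), the first 3 smaller and the other 4 larger in KOPTK1.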

How the results depend on the processing

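With guides, 19 genes higher and 3 lower of the 30 became 20 and 4 with edgeR and with DESeq2 on recovered reads (4850 and 4684 of all genes higher, 5195 and 5158 lower, against 4599 and 4920), and 19 to 21 and 2 to 4 when 1 library was left out. With ASOs, 23 and 4 became 22 and 4 with edgeR and 23 and 4 with DESeq2. These 2 ASO fits left out CUTLL1 ASO 1, so tool and library changed together. Over all genes they gave 3936 and 3820 higher and 4452 and 4033 lower, against 4359 and 4554. One ASO per line left fewer calls: with number 1 alone 15 members and 2817 of all genes were higher, and with number 2 alone 2847 of all genes. Counting the libraries of each line and arm once, guides and ASOs together, was an alternative chosen after seeing the data. It gave 16 members higher and 3 lower, beside 3330 and 3601 of all genes. Without a filter, 3 members responded less in KOPTK1 than in CUTLL1 with guides, against 5, and those that responded more ran from 2 to 5 when 1 library was left out, against 4. Replicate numbers did not pair libraries (correlation -0.013 in HPB-ALL, 1 pair). The replicate block gave 19 and 3 with guides, beside 4460 and 4728 of all genes. With ASOs it gave 21 and 4, beside 3579 and 3722 of all genes. There LBR and SREBF1 lost their calls (adjusted p = 0.0525 and 0.0568, limma) and INSIG2 turned to -0.0063. None of the results that reversed had passed the threshold. CYP51A1 with guides turned positive under quantile scaling (0.26), with number 2 alone (0.11) and with edgeR (0.016). It was also positive without KOPTK1 control guide 1, KOPTK1 guide 1 or HPB-ALL control 1, and ran from -0.32 to 0.094 without 1 library. With guides and ASOs of each line and arm counted together once, it was 0.034. INSIG2 with ASOs turned negative with number 1 alone (-0.0063) and with edgeR, which left out CUTLL1 ASO 1 (-0.0021). It was also negative without CUTLL1 control ASO 1 (range without 1 library -0.063 to 0.10). Over the same omissions HMGCS1 with guides ran from -0.10 (without CUTLL1 control guide 1) to 0.19, LBR with guides from -0.014 (without KOPTK1 control guide 1) to 0.15, and SCAP with ASOs from -0.026 (without CUTLL1 control ASO 1) to 0.13; the cause was not tested. Quantile scaling moved the median of all genes from -0.03 to 0.07 with guides and from -0.01 to 0.08 with ASOs. Counts near 0 limit ABCA1 in KOPTK1 and ABCA1, ABCG1 and MYLIP in HPB-ALL.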
